A study of Mus musculus with 6 samples.

Results

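The 10 transcripts described here are those of the folate one-carbon enzymes Shmt1, Shmt2, Mthfd1 and Mthfd1l and of the purine synthesis enzymes Ppat, Gart, Pfas, Paics, Adsl and Atic. They were chosen by symbol for their place in the pathway, with earlier results of these data known, and all 10 were found among the 17691 genes of the deposited tables. The cells were erythroblasts, the nucleated precursors of red cells, from C57BL/6J fetal liver, purified as negative for the later erythroid antigen TER119 and cultured with erythropoietin. The untreated group has 3 libraries, and the other group has 3 libraries from cells given carbon dots (CDs, nanometre-sized carbon particles made from the plant Codonopsis pilosula) at 1 ug/ml for 30 h. The labels used here give no embryo age, pooling of embryos, separate litters or vehicle for either group. Replicates carry the numbers 1 to 3 in both groups, and libraries with the same number are called a pair here. The question is whether RNA of these enzymes differed between treated and untreated cells.

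Folate carries single carbon units between serine, which gives them up, and the reactions that build purine rings and thymidylate. In mitochondria SHMT2 takes the unit from serine, and MTHFD1L releases it as formate. In the cytosol MTHFD1 takes the formate back up on folate, while SHMT1 can move units to and from serine directly. The purine ring is then assembled on a ribose phosphate by PPAT, GART, PFAS, PAICS, ADSL and ATIC, of which GART and ATIC use folate-bound carbon. Dividing erythroblasts copy their DNA through several rapid divisions, which draws on both routes.

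Each library held between 17695997 and 20066581 expected counts, the estimated number of reads per gene, a ratio of 1.13. Of the 17 erythroid markers checked, 17 were in the table, and their summed level was 116387 to 145062 CPM (counts scaled to the library total) per library. The erythroid sum was lowest in CDs 3 and next lowest in untreated 3 (124859 CPM). With CDs 6 of the 17 markers were lower and 0 higher in all 3 pairs, beside 26.2% and 30.2% of all genes tested. Macrophage markers differed widely between libraries. The sum of 15 such genes was 173, 516 and 4595 CPM in untreated 1, 2 and 3 and 399, 1691 and 5914 CPM in CDs 1, 2 and 3. None of the 15 was at 0 in every library, and 14 of them were higher in untreated 3 than in untreated 1, where 50.3% of all genes tested were lower. The pair numbered 3 therefore stands apart from the others in both groups.

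The serine-using pair Shmt1 and Shmt2 held the highest and the lowest level of the 10 and had group means on opposite sides of 0 change, so the stretch before each gene's start is shown. Both are written 5′ to 3′ on the gene's own strand from RefSeq in GRCm38.p6, with capitals for matches to the motifs named after them and without bases that GENCODE places in an exon.
Shmt2, chr10:127522445-127522694, minus strand: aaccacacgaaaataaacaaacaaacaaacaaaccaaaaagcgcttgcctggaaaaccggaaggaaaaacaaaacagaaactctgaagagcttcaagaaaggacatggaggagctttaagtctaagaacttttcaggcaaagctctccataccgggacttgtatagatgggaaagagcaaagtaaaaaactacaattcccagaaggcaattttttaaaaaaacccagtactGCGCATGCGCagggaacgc
Shmt1, chr11:60811266-60811466, minus strand: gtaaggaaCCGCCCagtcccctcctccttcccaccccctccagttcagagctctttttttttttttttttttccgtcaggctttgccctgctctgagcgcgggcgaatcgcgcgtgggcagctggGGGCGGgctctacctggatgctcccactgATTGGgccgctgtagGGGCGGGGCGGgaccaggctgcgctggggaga
The Shmt2 stretch holds 1 match, the capitals, to the palindrome known as a site for the factor NRF1, starting 19 bases before the gene's start, and no CCAAT or GC box. The Shmt1 stretch holds GGGCGG (the GC box, on either strand) at 4 positions, a pair of them overlapping by 1 base, and CCAAT, on the opposite strand as ATTGG, at 1 position.

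RefSeq promoters were matched by symbol, and 9 of the 10 genes had a sequence in the RefSeq table, and Pfas was not matched. Both strands of the 250 bases before the start given in that table were searched in these 9 and in all its 32851 promoters. For Mthfd1 and Mthfd1l that start lies inside the gene span given below. Their windows were 76254982 to 76255231 and 3972825 to 3973074. Exon bases were kept in this search. All 250 bases before Paics lie in exons of Ppat, all 250 before Ppat in exons of Paics, and all 250 of the Mthfd1 window in exons of Gm47525. GGGCGG was found before 8 of the 9 genes, all but Shmt2, against 32.7% of all promoters. CCAAT was found in Shmt1, Mthfd1, Gart, Paics and Atic, 5 of 9, against 33.8%. The E-box CACGTG, a site that MYC can bind, was found in Paics and Atic, 2 of 9, against 6.02%. The NRF1 palindrome was found in 1 of 9 against 0.782%, and the ATF4 element TGATGNAA in 0 of 9 against 3.45%. These are matches of letters and do not show that a factor was bound.

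Levels between genes were compared in FPKM, which divides by transcript length. Shmt2 was the most abundant, at 202 ± 45.2 FPKM (SD, n = 3) without and 165 ± 52.3 FPKM with CDs. Paics, an enzyme with carboxylase and ligase activities in the middle of the purine route, followed at 139 ± 36.1 and 119 ± 37.3 FPKM. Their ranges overlapped in both groups, but Shmt2 was above Paics within each of the 6 libraries. Atic (51.3 ± 18.5 FPKM untreated), Mthfd1 (40.5 ± 14.4), Mthfd1l (38.4 ± 12.4) and Gart (36.2 ± 10.9) lay below Paics, whose range did not overlap that of Atic. Adsl stood at 21.96 ± 6.46, Ppat at 16.7 ± 6.05 and Pfas at 9.75 ± 2.56 FPKM untreated, each overlapping its neighbour in range. Within each library Adsl was above Ppat and Ppat above Pfas. Shmt1 was the lowest, at 4.70 ± 0.447 FPKM untreated and 5.26 ± 1.08 with CDs. Its range was apart from that of Pfas in untreated but overlapped it in CDs libraries, though Shmt1 was below Pfas in every library. The order of the 10 means was the same in both groups. PPAT, which commits the ribose phosphate to the route, thus had the second lowest mean of the 6 purine transcripts.

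**Figure D1:**
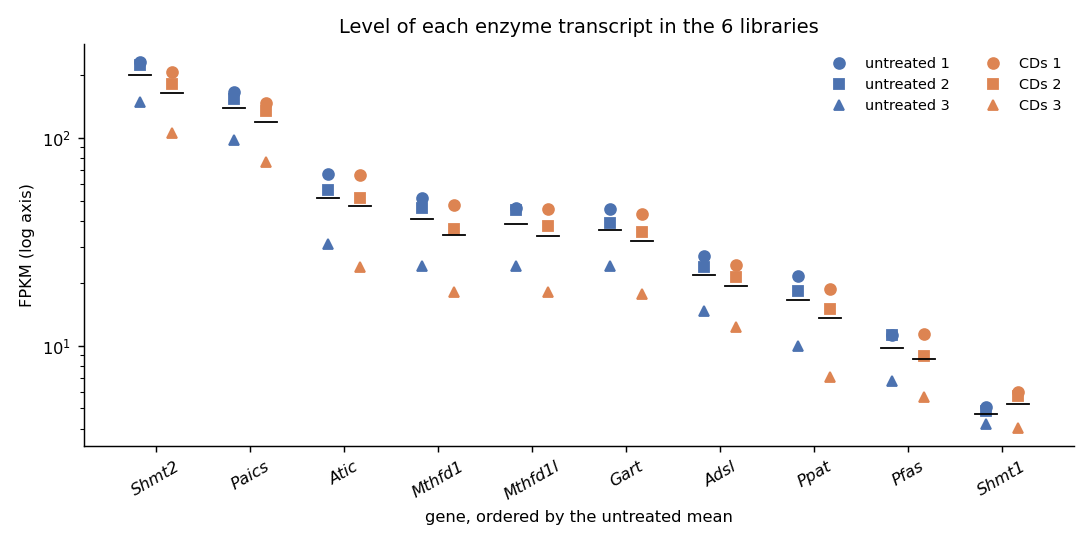
FPKM on a log axis for each gene in the 3 untreated and 3 CDs libraries, with point shapes for the replicate number and a line at each group mean. Triangles, the libraries numbered 3, are the lowest point of every gene in both groups, and the means run from 202 FPKM (Shmt2) to 4.70 FPKM (Shmt1) in untreated libraries.

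With CDs, 9 of the 10 transcripts had lower group means, where the median log2 fold change over all genes was 0.01. In each of the 3 pairs 8 were lower, beside 26.2% of all genes. In DESeq2 with the pair as a term Shmt2, Ppat, Mthfd1 and Paics fell by 0.36, 0.37, 0.33 and 0.28 on the log2 scale, where 2.08% of all genes were called lower. At the same threshold edgeR and limma-voom with the pair called 0 members. Shmt1 alone had a higher mean, a log2 fold change of 0.14 ± 0.24 (SE) that passed no test. For every member the fold change was smaller than the difference between untreated 1 and untreated 3, which is a difference between pairs. The groups overlapped in all 10 members, where 2.33% of all genes were lower and 2.37% higher without overlap. Differences within a pair leave out that spread between pairs.

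Shmt2, the mitochondrial serine hydroxymethyltransferase (Entrez 108037, chromosome 10, 127517123 to 127522444), measured 553, 529.7 and 340.5 CPM in untreated 1, 2 and 3. It measured 486, 425 and 236 CPM in CDs 1, 2 and 3. Each treated library was below its numbered partner, by 0.19, 0.32 and 0.53 on the log2 scale, while CDs 1 and 2 lay above untreated 3. The log2 fold change was -0.31 ± 0.34 (SE) without and -0.34 ± 0.08 with the pair in the edgeR fit (adjusted p = 0.994 and 0.0961).

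Shmt1, the cytosolic counterpart (Entrez 20425, chromosome 11, 60788897 to 60811265), measured 10.8, 10.2 and 8.55 CPM untreated and 12.6, 12.02 and 8.004 CPM with CDs. It was higher in the treated library of pairs 1 and 2, by 0.22 and 0.23 (log2), and lower in pair 3, by 0.10. With 166 to 239 counts per library it was the least deeply counted of the 10. The edgeR log2 fold change with the pair was 0.12 ± 0.12 (adjusted p = 0.529).

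Mthfd1, the cytosolic enzyme with 3 folate activities (Entrez 108156, chromosome 12, 76254406 to 76319820), measured 178, 158 and 79.8 CPM untreated and 162, 124 and 58.4 CPM with CDs. Its treated libraries were lower by 0.14, 0.35 and 0.45 (log2). Mthfd1l, the mitochondrial formate-releasing enzyme (Entrez 270685, chromosome 10, 3972892 to 4167081), measured 179.6, 173 and 89.3 CPM untreated and 173, 143 and 65.8 CPM with CDs. Its pair 1 differed little, at -0.05, and pairs 2 and 3 by -0.27 and -0.44. For both genes the libraries numbered 3 were the lowest of their groups, and CDs 3 was the lowest of all 6. With the pair in the fit, edgeR gave -0.31 ± 0.08 for Mthfd1 (adjusted p = 0.0988) and -0.25 ± 0.09 for Mthfd1l (adjusted p = 0.131).

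Along the purine route, Ppat, the amidotransferase of the first committed step (Entrez 231327, chromosome 5, 76913249 to 76951578), measured 91.0, 76.3 and 39.8 CPM untreated and 77.0, 61.4 and 27.7 CPM with CDs. It was lower by 0.24, 0.31 and 0.52 (log2) in the 3 pairs, the largest difference of the 10 members in pair 1. Gart, a single protein for 3 separate steps (Entrez 14450, chromosome 16, 91621395 to 91646972), measured 158, 135 and 80.0 CPM untreated and 148, 119.9 and 57.9 CPM with CDs. Pfas, the glutamine-using synthase (Entrez 237823, chromosome 11, 68985701 to 69008460), measured 75.0, 74.1 and 43.2 CPM untreated and 75.1, 58.3 and 35.4 CPM with CDs. Gart was lower in every pair, and Pfas was level in pair 1 and lower in pairs 2 and 3, by 0.35 and 0.29.

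Paics (Entrez 67054, chromosome 5, 76951302 to 76967509) measured 365, 333 and 205 CPM untreated and 318, 289.5 and 157 CPM with CDs. Adsl, the lyase that also acts in AMP synthesis (Entrez 11564, chromosome 15, 80948490 to 80970947), measured 105, 92.1 and 54.4 CPM untreated and 93.7, 80.9 and 44.7 CPM with CDs. Atic, which closes the ring to IMP (Entrez 108147, chromosome 1, 71557156 to 71579403), measured 182, 151 and 79.6 CPM untreated and 177, 136 and 60.3 CPM with CDs. In each of these 3 genes every treated library was below its partner. Paics and Adsl kept a like distance in pairs 1 and 2 (-0.20 and -0.20 for Paics, -0.17 and -0.19 for Adsl), whereas Atic went from -0.03 in pair 1 to -0.40 in pair 3.

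The ratio of summed CPM of all 10 genes, treated to untreated, was 0.907, 0.837 and 0.737 in pairs 1, 2 and 3. The median log2 difference of the 10 was -0.12, -0.24 and -0.42, beside 0.04, 0.00 and 0.00 over all genes tested. Within pairs the sum moved against the macrophage markers: in each pair the treated library had less of the enzymes and more of those markers. Between pairs this did not always hold. CDs 1 had fewer of the markers than untreated 2 (399 against 516 CPM) and slightly less of the enzymes (1722 against 1733 CPM). Within the untreated group the sum was 1898 CPM in untreated 1 and 1020 CPM in untreated 3, where the markers were at 173 and 4595 CPM. Of the 15 macrophage markers 11 were higher and 1 lower with CDs in all 3 pairs, beside 30.2% and 26.2% of all genes tested. The sum of granulocyte and mast cell markers was higher with CDs in each pair, but in pair 3 only from 2235 to 2272 CPM. This sum also rose from 303 CPM in untreated 1 to 2235 CPM in untreated 3, and from 522 CPM in CDs 1 to 2272 CPM in CDs 3. Of these 15 genes 6 were higher and 0 lower with CDs in all 3 pairs. Endothelial markers summed to 184, 175 and 207 CPM untreated and 503, 434 and 340 CPM with CDs, so these groups did not overlap. Of these 11 genes 6 were higher and 1 lower in all 3 pairs. The hepatocyte marker sum was also higher with CDs in each pair, at 293, 229 and 517 CPM untreated and 352, 356 and 691 CPM with CDs. Of these 10 genes 6 were higher and 0 lower in all 3 pairs. The lymphoid sum was higher with CDs in each pair, with 2 of 9 genes higher and 0 lower in all 3. Megakaryocyte and stem and progenitor sums were higher in pairs 1 and 2. In pair 3 they were lower, from 126 to 120 and from 464 to 453 CPM. In all 3 pairs 3 of 10 and 6 of 10 of their genes were higher, and 1 and 0 lower. The counts of all these lists stand beside the same 30.2% and 26.2% of all genes. In such bulk libraries fewer cells of a type and less RNA per cell cannot be told apart, and the part of RNA from these other cell types in the result was not tested.

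**Figure D2:**
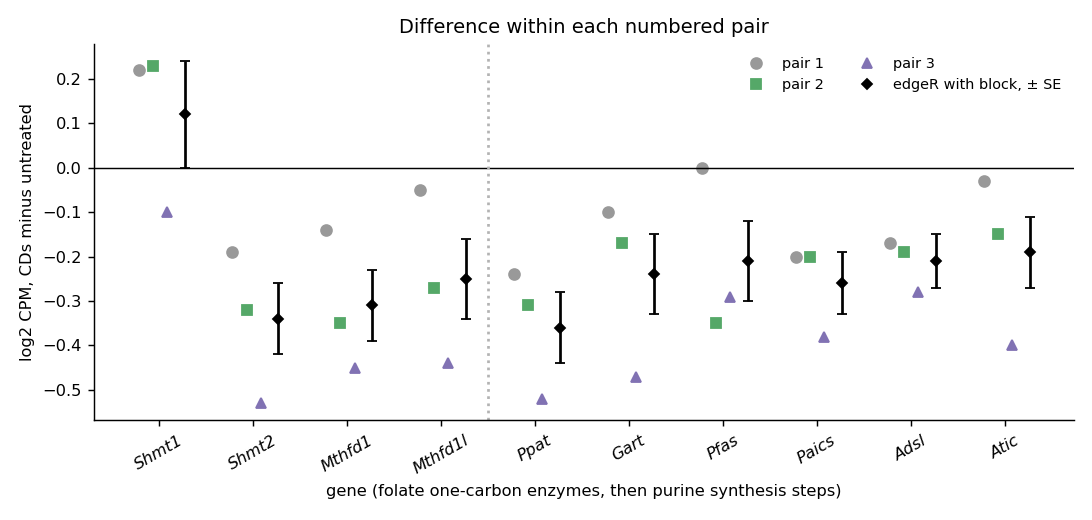
Difference in log2 CPM, CDs minus untreated, for each gene in pairs 1, 2 and 3, beside the edgeR estimate with the pair as a block and its standard error. Shmt1 is above 0 in pairs 1 and 2, Pfas sits at 0 in pair 1, and every other pair difference is below 0, down to -0.53 for Shmt2 in pair 3.

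**Figure D3:**
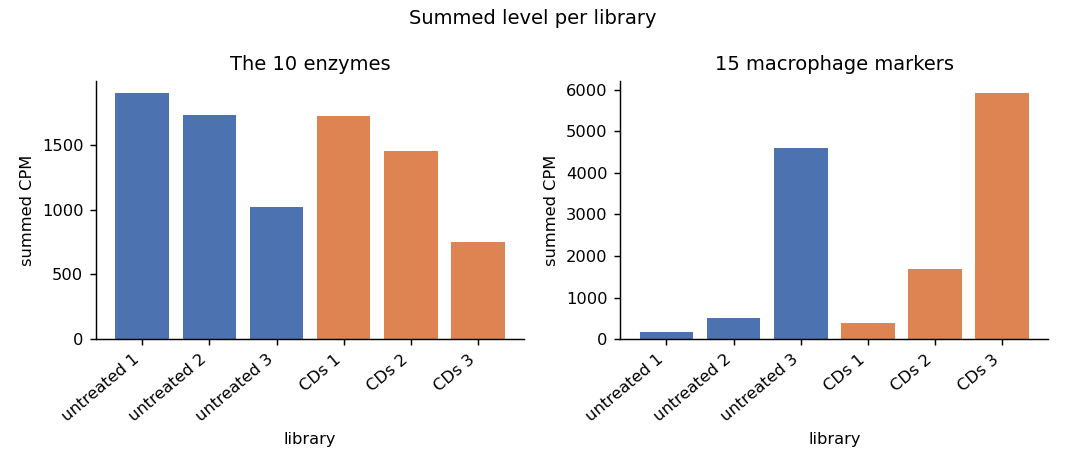
Summed CPM per library of the 10 enzymes (left) and of 15 macrophage markers (right), bars from 0. The enzymes are lowest in CDs 3 (752 CPM), the library with the most macrophage marker RNA (5914 CPM).

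All 10 members passed the filter on low counts and were among the 12283 genes tested. Without the pair as a term, edgeR called 0 of the 10 members at an adjusted p under 0.05 and 0 of all genes (0%), and 0 members but 127 genes had an unadjusted p under 0.05. DESeq2 and limma-voom without the pair also called 0 members, against 0.114% and 0% of all genes. With the pair in the edgeR fit 0 members passed 0.05, where 0.0407% of all genes did, and 7 members were lower at an unadjusted p under 0.05, where 11.9% of all genes were. At an adjusted p under 0.1 that fit called 4 members lower, Shmt2, Mthfd1, Ppat and Paics, against 3.13% of all genes called lower. In limma-voom with the pair 0 members passed 0.05, against 0.0488% of all genes, and the same 4 were lower at 0.1, against 4.16%. DESeq2 with the pair called the same 4 lower at 0.05, with adjusted p-values of 0.0166, 0.0487, 0.0342 and 0.0446, against 2.08% of all genes. In simulated data with changes larger than those of the members, fits with the pair made more false calls than their threshold allows. Over all settings tried the adjusted p of these 4 genes ran up to 1. Lower in all 3 pairs were 8 of 10 members, all but Shmt1 and Pfas, beside 26.2% of all genes.

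The number of calls changed with the pair left out, for the members and for all genes. In the edgeR fit with the pair as a block, 0 members passed 0.05 with all pairs, and leaving out both libraries numbered 3 gave 3 calls, Shmt2 (-0.27 ± 0.08), Mthfd1 (-0.27 ± 0.08) and Ppat (-0.30 ± 0.09), where 2.97% of all genes were called lower. Leaving out those numbered 2 gave calls for Shmt2 (-0.38 ± 0.11) and Ppat (-0.40 ± 0.10), where 2.32% of all genes were called lower. Leaving out those numbered 1 gave 0 members and also 0 of all genes. In that fit Shmt2 was at -0.43 ± 0.08, Mthfd1 at -0.41 ± 0.06 and Ppat at -0.42 ± 0.09. Without the block, dropping CDs 3 alone turned 8 of the 9 lower genes to a value above 0, with Shmt2 at -0.06, in a fit that kept untreated 3.

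The libraries numbered 3 lay further from those numbered 1 than the libraries numbered 2 did, with a median member difference of -0.15 from untreated 1 to untreated 2. From untreated 1 to untreated 3, all 10 members were lower, as were 50.3% of all genes, with a median of -0.97 for the members and 0.00 over all genes (log2). Ppat was 2.29-fold, Atic 2.28-fold and Mthfd1 2.23-fold higher in untreated 1 than in untreated 3, against 1.62-fold for Shmt2 and 1.26-fold for Shmt1. In untreated 3, 4 members (Mthfd1, Mthfd1l, Ppat and Atic) were at 50% or less of their untreated 1 level, as were 4% of all genes. In the treated group CDs 1 exceeded CDs 3 by 2.94-fold in Atic, 2.78-fold in Ppat, 2.77-fold in Mthfd1 and 1.57-fold in Shmt1. Of the 10, 6 had one and the same order of libraries, untreated 1, CDs 1, untreated 2, CDs 2, untreated 3 and CDs 3 from high to low. The lowest library was CDs 3 in all 10.

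Mitochondrial and cytosolic enzymes were set against each other within a library, which needs no scaling between libraries. The Shmt2 to Shmt1 ratio of FPKM was 45.7, 46.3 and 35.6 in untreated 1, 2 and 3 and 34.4, 31.6 and 26.4 in CDs 1, 2 and 3. The groups were apart by little, with untreated 3 (35.6) and CDs 1 (34.4) nearest. The mean was 42.5 ± 6.00 (SD, n = 3) untreated and 30.8 ± 4.05 with CDs. The log2 ratio was lower by 0.41, 0.55 and 0.43 in pairs 1, 2 and 3, with counting errors of 0.14, 0.14 and 0.16 (SE). The exact permutation p was 0.1, two-sided, the smallest that 3 against 3 libraries allow, and 0.2 after adjustment over the 2 ratios tested. As a share of the counts of both genes, Shmt1 held 1.92% (exact 95% interval 1.67 to 2.19), 1.90% (1.64 to 2.17) and 2.45% (2.10 to 2.84) in untreated 1, 2 and 3. With CDs it held 2.53% (2.21 to 2.88), 2.75% (2.42 to 3.12) and 3.28% (2.80 to 3.81). The intervals of treated and untreated libraries were apart in pairs 1 and 2 and overlapped in pair 3. Those of untreated 3 and CDs 1, the nearest libraries across the groups, also overlapped. All these intervals cover counting error only.

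For the formate enzymes, the Mthfd1l to Mthfd1 ratio of FPKM was 0.899, 0.975 and 0.996 without CDs and 0.955, 1.03 and 1.00 with CDs. The groups overlapped, with a log2 difference of 0.06 that was below the SD within untreated libraries, 0.08 (exact permutation p = 0.4). Within pairs 1, 2 and 3 the log2 ratio was higher with CDs by 0.09, 0.09 and 0.01, with an exact sign-flip permutation p of 0.25, the smallest that 3 pairs allow. The transcripts of MTHFD1L and MTHFD1 thus stayed near a ratio of 1 in all 6 libraries, although CDs 1 exceeded CDs 3 by 2.64-fold in Mthfd1l and 2.77-fold in Mthfd1.

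**Figure D4:**
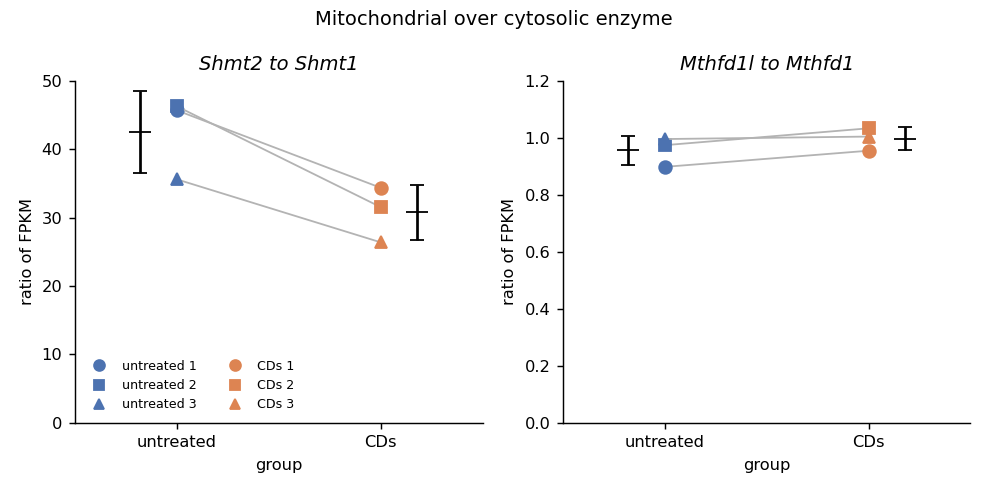
Ratio of FPKM of the mitochondrial to the cytosolic enzyme in each library, lines joining same-numbered libraries, with group mean and SD beside the points; both axes start at 0. Shmt2 to Shmt1 is lower with CDs in 3 of 3 pairs, and Mthfd1l to Mthfd1 stays between 0.899 and 1.03.

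Genes around these enzymes were taken from 9 lists with 84 tested genes. In edgeR 0 of the 84 passed with or without the pair, while DESeq2 with the pair called 8 lower and 4 higher, against 2.08% and 7.7% of all genes. Lower in all 3 pairs were 39.3% of the 84 and higher 22.6%, beside 26.2% and 30.2% of all genes. The median log2 fold change was -0.05 over the 84, -0.20 over the 10 members and 0.01 over all genes. With that last median about as many of all genes lay below 0 as above it. Some of the list counts below are near such a split.

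In the supply of serine and glycine 6 of 7 genes had a value below 0, with a median of -0.09, and Psph, the last enzyme of serine synthesis, had -0.27 ± 0.31. Gldc, of glycine cleavage, went the other way, from 0.486 ± 0.140 CPM (SD, n = 3) to 1.26 ± 0.714 CPM, the lowest levels named here besides Aldh1l2 and Mycn, and it did not pass. Of the 5 genes that make or regulate phosphoribosyl pyrophosphate, the ribose donor, 3 were below 0, with Prps1 at -0.29 ± 0.48 and Prpsap1 at -0.09 ± 0.19. In the branches from IMP to AMP and GMP 8 of 12 were below 0, and their first named genes differed in direction, Guk1 at -0.42 ± 0.37 and Adss at 0.12 ± 0.10. Pyrimidine synthesis had 8 of 10 below 0, among them Dut, which removes dUTP, at -0.43 ± 0.37, while Ctps2, a CTP synthase, had 0.70 ± 0.79. Of the ribonucleotide reductase genes, Rrm1 (large subunit, -0.15 ± 0.37), Rrm2 (small subunit, -0.13 ± 0.26) and the other one were all below 0.

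Of the 11 genes of purine salvage and breakdown 5 were below 0, with a median of 0.00, and in untreated 3 the list was higher than in untreated 1, by a median of 0.51 (log2), where the members were lower. Aprt, which recycles adenine, had 0.26 ± 0.28 and Gda, guanine deaminase, 0.42 ± 0.30, and neither passed. The other folate enzymes and transporters had 6 of 15 below 0 and a median of 0.12. In this list Mtfmt, which formylates the mitochondrial initiator tRNA, had -0.21 ± 0.20 and Aldh1l2, at 0.520 ± 0.163 CPM untreated, 0.33 ± 0.32. In the methionine cycle and transsulfuration 6 of 10 were below 0, with Cth at -0.77 ± 0.37 and Ahcyl2 at 0.23 ± 0.27. Among the factors linked to these genes 6 of 11 were below 0, with Tfap4 at -0.43 ± 0.32 and Mycn, at 0.523 ± 0.0410 CPM untreated, at 0.65 ± 0.40. Named after their values were seen, the genes that DESeq2 with the pair called lower included Phgdh, Prps1, Impdh2, Dut, Dtymk and Tk1, and those it called higher included Aldh1l1, Xdh and Ctps2. Xdh and Ctps2 were also higher in untreated 3 than in untreated 1, and Aldh1l1 was lower.

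**Figure D5:**
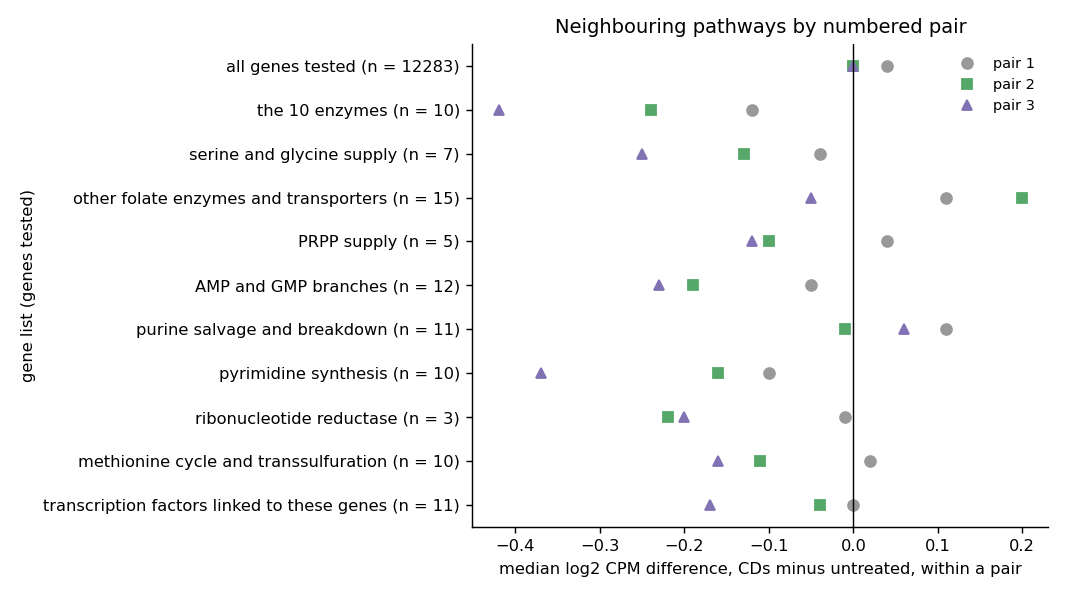
Median log2 CPM difference within pairs 1, 2 and 3 for all genes tested, the 10 enzymes and 9 neighbouring gene lists, with the number of genes tested. The 10 enzymes are at -0.12, -0.24 and -0.42, all genes at 0.04, 0.00 and 0.00, and purine salvage and the other folate genes lie on both sides of 0.

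The genes whose pattern over the 6 libraries lay nearest to the mean pattern of the members were Ran, Cct5, Dis3, Usp10 and Gas2. Their root mean square distance in centred log2 CPM was 0.018 to 0.029, against a median of 0.416 over the 8193 genes compared. Among the members themselves Adsl (0.044) and Gart (0.051) lay nearest to that mean and Shmt1 (0.308) farthest. Ran, the nearest gene, measured 869, 796 and 461 CPM untreated and 798, 675 and 348 CPM with CDs.

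Some reads of these genes cannot be assigned with certainty, because the protocol names no step that keeps strand. Ppat and Paics lie head to head on chromosome 5 and share 272 exonic bases (76951307 to 76951578), 6.2% of the exonic bases of Ppat and 8.7% of those of Paics. In Gart 19.7% of exonic bases overlap the antisense gene Gm15964, which has no row under that symbol in the tables used here. Overlaps of Shmt1 with Smcr8 (4.7%) and of Shmt2 with Ndufa4l2 (1.0%) are smaller. Counts of Ppat, Pfas, Paics and Adsl were not whole numbers in all 6 libraries, nor were those of Shmt1 in 3 libraries, so part of their reads was divided between genes or transcripts by estimation. The largest root mean square difference between counts and FPKM in a member was 0.00222 (log2) against a median of 0.00530 over 8849 genes.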

How the data were processed

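RNA from 6 libraries was measured by sequencing of oligo(dT)-selected RNA, read from one end over 50 bases, per the labels' protocols. The authors deposited expected counts per gene, of which 30.1% are not whole. Their other deposited table was taken as FPKM because its values are the counts over a length per gene and the library total. RSEM 1.2.12, DESeq2 1.4.5, HISAT2 2.0.4, Bowtie2 2.2.5 and the build GRCm38.p6 are named, without roles, per the submitters' processing notes. The deposited expected counts were rounded, filtered with filterByExpr (12283 genes) and scaled by TMM. The test was the robust quasi-likelihood one of edgeR 4.0.16 (R 4.3.3) on treatment alone, and p-values were adjusted by Benjamini and Hochberg over all genes. DESeq2 1.42.0, limma 3.58.1, a replicate block, other scaling and filters and left-out libraries were alternatives. In data simulated from these libraries, fits with the block made more false calls than their threshold allows, and fits without it made none. On the real counts edgeR fitted a wider spread without the block, a common coefficient of variation of 0.485 against 0.112 with it. The share of true changes that each fit recovered is not reported here.

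Replicate numbers were taken to pair the libraries, because deviations from the group means correlated at 0.95, 0.49 and 0.96 for numbers 1, 2 and 3. Deviations within a group cancel out, so these 3 values are not independent, and differently numbered libraries were not compared in this way. The labels do not state this pairing. Nothing in the labels says that replicates are separate cultures or litters, so p-values measure the spread between these samples. The members and lists were chosen with earlier results of these data known. The rule for names besides the members takes at most 2 genes per list with the smallest unadjusted p without the block and the 5 nearest in pattern among genes of at least 10 CPM, without predicted or clone names, and other list genes are said to be named after their values were seen. Symbols turned into dates (24) were restored by Entrez number. FPKM was tested as log2(FPKM + 1). Some genes of the lists are not reported here by name.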

Additional observations from a re-analysis of the deposited data

How the results depend on the processing

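Called members numbered 0 in edgeR without the block and 4 in DESeq2 with the replicate block. With the block and a pair left out they numbered 0 to 3, and with 1 library left out without it, 0. Over all genes 0 were called, against 5 with the edgeR block, 6 with the limma-voom block, 14 in DESeq2 and 1201 in DESeq2 with the block. With the block and pair 1, 2 or 3 left out it was 0, 899 or 1835, in fits with 1 residual degree of freedom per gene. In DESeq2 with the block the lists had 1 call for serine and glycine, 3 for other folate genes, 1 for phosphoribosyl pyrophosphate, 2 for the AMP and GMP branches, 1 for purine salvage and 4 for pyrimidines. With the block and a pair left out they had 0 to 1, 0 to 3, 0 to 1, 0 to 4, 0 to 3 and 0 to 4, and methionine genes 0 to 1. In DESeq2 with the block Shmt2 (-0.36), Mthfd1 (-0.33), Ppat (-0.37) and Paics (-0.28) passed. With the block, Shmt2 (-0.38) and Ppat (-0.40) passed in edgeR without pair 2, and Shmt2 (-0.27), Mthfd1 (-0.27) and Ppat (-0.30) without pair 3.

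With 1 library or 1 pair left out, log2 fold changes ran from 0.02 to 0.32 for Shmt1, -0.53 to -0.06 for Shmt2, -0.61 to 0.04 for Mthfd1, -0.50 to 0.11 for Mthfd1l, -0.64 to 0.003 for Ppat, -0.49 to 0.10 for Gart, -0.46 to 0.06 for Pfas, -0.46 to 0.01 for Paics, -0.43 to 0.06 for Adsl and -0.49 to 0.19 for Atic. Without CDs 3 all but Shmt1 and Shmt2 changed sign, and without untreated 1 Gart (0.01) and Atic (0.11) did, in fits that left the numbered partner in place. With the replicate block and all pairs no member changed sign or passed 0.05 in edgeR. The Shmt2 to Shmt1 difference was -0.47 with and without pairing (sign-flip permutation p = 0.25, the smallest possible), and it kept its sign with any 1 library left out. Scaling by DESeq2's size factors, no filter on low counts and FPKM left all 10 signs as they were. Shmt1, at 166 to 239 counts, is the member that depth limits most.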
